A study of Mus musculus with 6 samples.

Results

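The genes described here encode the actin cytoskeleton and focal adhesions, 40 genes taken by exact gene symbol from a deposited table of 56691 genes, and all 40 were found, each on 1 row. They were compared in 6 RNA sequencing libraries of wild-type mouse macrophages, a line given as RAW246.7 in the labels. All cells had been pretreated with LPS, lipopolysaccharide of bacteria and a macrophage activator, and then spent 24 h on a hydrogel, MSA-ZW for 3 libraries and MSA-DA for the other 3. The series title concerns fibrin networks on macroporous gels of differing protein absorption, so the comparison asks how the gel bears on macrophage expression. The material is a cell line, and no label says that the libraries of a gel came from separate cultures, so p-values here rest on a sample-to-sample spread that may be technical only.

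Actin filaments grow from monomers at their fast ends, are branched by the Arp2/3 complex, severed by cofilin, coated by tropomyosins and bundled or meshed by crosslinkers. Nonmuscle myosin II pulls on them. At adhesions, talin and kindlin bind integrin tails, vinculin and paxillin join them, and kinases such as focal adhesion kinase or Src signal from there. Macrophages use this machinery for crawling and phagocytosis and for podosomes, their small actin-rich contacts. RhoA and its kinases drive contraction, and the coactivators MRTF with SRF, and YAP with TEAD, are known to carry the state of actin to the nucleus.

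Of the 40 members, 38 had enough reads to be tested, 17 were lower and 3 were higher on MSA-DA, and 18 did not pass (edgeR quasi-likelihood test, Benjamini-Hochberg adjusted p below 0.05). Over all 12467 tested genes 13.4% passed, 6.50% lower and 6.92% higher. Deep genes pass more often, and among the 2421 genes averaging 100 CPM or more (counts per 1000000 on scaled library sizes) 14.3% were lower and 16.6% higher. The 30 members at that depth held all 17 lower and all 3 higher calls, and none of the 8 tested members under it passed. The changes were small: the median log2 difference of the tested members was -0.09, against 0.00 for all tested genes, and it ranged among called members from -0.26 for Lmna to 0.22 for Tpm4. The lower calls were spread over myosin, crosslinkers, turnover factors, adhesion plaque and cortex linkers. They also included beta-actin, Tagln2 of the filament side, the nuclear lamina gene Lmna and the channel gene Piezo1. The 3 higher calls were gamma-actin and the tropomyosins Tpm1 and Tpm4. In bulk RNA a lower level in each cell and fewer cells of a kind cannot be told apart.

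**Figure D1:**
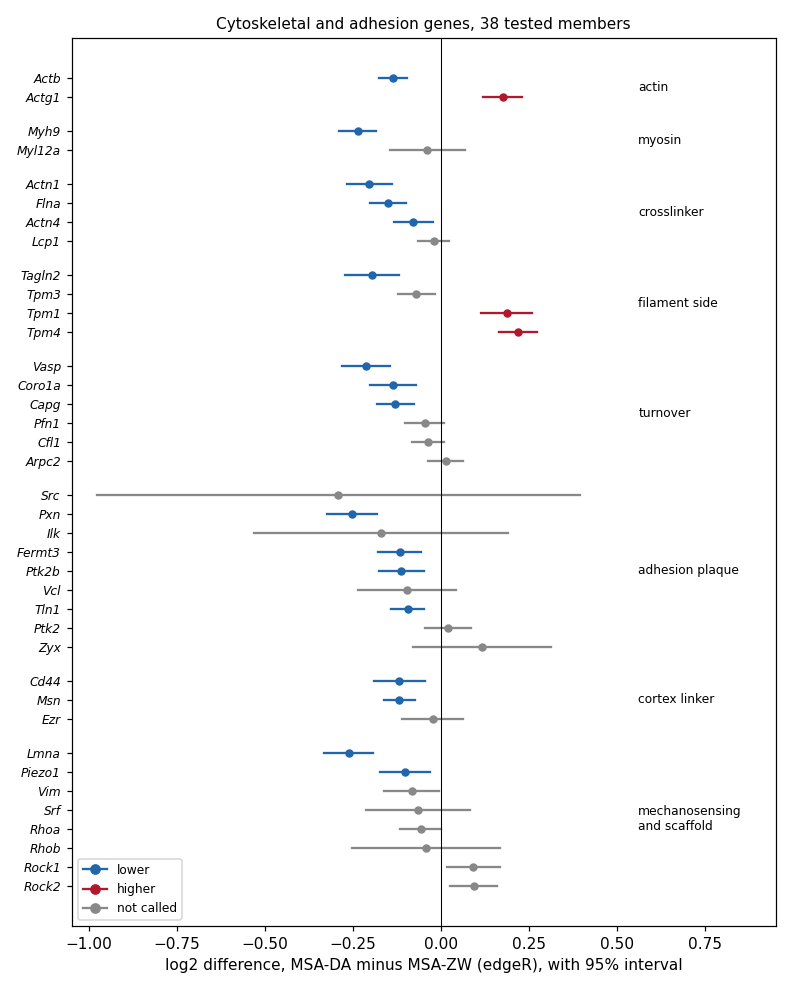
Log2 difference of each tested member (x axis, MSA-DA minus MSA-ZW, points) with its unadjusted 95% interval (lines), grouped by role, with blue for lower, red for higher and grey for not called. Blue points occur in every class, the 3 red points are Actg1, Tpm1 and Tpm4, and the widest intervals belong to the low genes Src and Ilk.

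Count totals of 14374912 to 18346615 were found on MSA-DA, and of 16347934 to 18193026 on MSA-ZW. Mitochondrial genes took 3.10% to 3.12% of counts on MSA-DA and 2.73% to 2.78% on MSA-ZW, and the 18S ribosomal RNA locus Rn18s-rs5 took 0.132% to 0.141% and 0.238% to 0.449%. A fit without mitochondrial and ribosomal-RNA-like genes called 18 members lower and 3 higher. All 8 macrophage markers had enough reads to test, and their summed level was 3916 to 3988 CPM on MSA-DA and 4546 to 4589 CPM on MSA-ZW. Of these, 3 were lower (Lyz2, Csf1r and Spi1) and 1 higher (Itgam). The sum was weighted to Lyz2, at 1769 ± 24.4 CPM on MSA-DA against 2291 ± 27.8 CPM on MSA-ZW (SD, n = 3). A positive log2 difference was found in 5 of the 8 markers. The part of these markers in the member results was not tested. Fibroblast, epithelial, lymphoid and smooth muscle markers summed to at most 1.54 CPM in any library, with Dcn, Epcam, Cdh1, Krt18, Krt19, Cd3g and Ncr1 at 0 throughout. Endothelial markers summed to at most 2.18 CPM, and osteoclast markers to 21.6 to 26.2 CPM on MSA-ZW and 24.0 to 26.9 CPM on MSA-DA. Most of the osteoclast sum was Dcstamp (24.3 ± 1.19 CPM on MSA-DA against 21.7 ± 2.23 CPM on MSA-ZW, SD, n = 3), which did not pass (edgeR adjusted p = 0.181). Of the 3 osteoclast markers tested 1 was lower, Acp5 (log2 difference -1.24, standard error 0.39, edgeR adjusted p = 0.0295), on counts of 22, 17 and 19 in MSA-ZW and 7, 7 and 9 in MSA-DA libraries, and its part in the member results was not tested either.

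The cytoplasmic actins went in opposite directions. Beta-actin, Actb (ENSMUSG00000029580, chromosome 5, 142888870 to 142892509, GRCm39), the main actin of nonmuscle cells, stood at 2210.0, 2215 and 2260.3 CPM in the 3 MSA-ZW libraries and 2069, 1971 and 2037 CPM in the 3 MSA-DA libraries. Gamma-actin, Actg1 (ENSMUSG00000062825, chromosome 11, 120236516 to 120239368), its close relative in the cell cortex, stood at 388, 397 and 412 CPM in the 3 MSA-ZW libraries and 444, 453 and 454 CPM in the 3 MSA-DA libraries. Every MSA-DA library lay below every MSA-ZW library for Actb and above for Actg1, a separation seen in 28.4% of all tested genes, 13.7% lower and 14.7% higher. Among the members 19 were apart as lower and 4 as higher, the 20 called ones and Lcp1, Tpm3 and Rock2. Actb was 1.1-fold lower (log2 difference -0.14, standard error 0.02, edgeR adjusted p = 4.88e-06) and Actg1 was 1.13-fold higher (log2 difference 0.17, standard error 0.03, edgeR adjusted p = 2.28e-05). Per exonic length, the deposited FPKM (counts scaled for exonic length and library total) of Actb exceeded that of Actg1 by a ratio of 5.65, 5.53 and 5.44 for MSA-ZW and 4.62, 4.31 and 4.45 for MSA-DA. The ratio was lower in each MSA-DA library than in any MSA-ZW library. Their summed level was 2598, 2612 and 2673 CPM on MSA-ZW and 2513, 2424 and 2491 CPM on MSA-DA, so the total was lower on MSA-DA although gamma-actin made up more of it. In percent, the Actg1 part of the summed counts was 14.9, 15.2 and 15.4 for MSA-ZW and 17.7, 18.7 and 18.2 for MSA-DA.

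The coding sequences of these actins are alike, but at the length of 75 bases exact matches were mainly with other genes. Their coding sequences, each of 1128 bases in GENCODE M21 (GRCm38), were identical at 1000 positions, which is 88.7%. The first 45 coding bases are shown because they hold the codons in which the N-termini of the actins are known to differ, with capitals at the bases that differ.
Actb: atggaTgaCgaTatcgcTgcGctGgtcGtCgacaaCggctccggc
Actg1: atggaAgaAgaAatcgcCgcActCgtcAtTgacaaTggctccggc
Of all stretches of 75 bases in the longest transcript, 2.60% in Actb and 54.5% in Actg1 also occurred exactly in a transcript of another gene. For Actb the largest overlaps were with Gm15725 and Lrrc58 (2.44% each), and neither actin was among the main partners of the other. For Actg1 the largest overlaps were with the actin pseudogenes Gm12715 (47.8%) and Gm8399 (26.7%), which had only 87 to 166 and 29 to 57 counts per library. Neither pseudogene passed (edgeR adjusted p of 0.394 and 0.731). Added to Actg1 they gave 397, 405 and 421 CPM on MSA-ZW and 452, 466 and 463 CPM on MSA-DA, and the gels still did not overlap. The absolute level of Actg1 is uncertain, with the handling of reads of several matches not given in the sources used here.

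**Figure D2:**
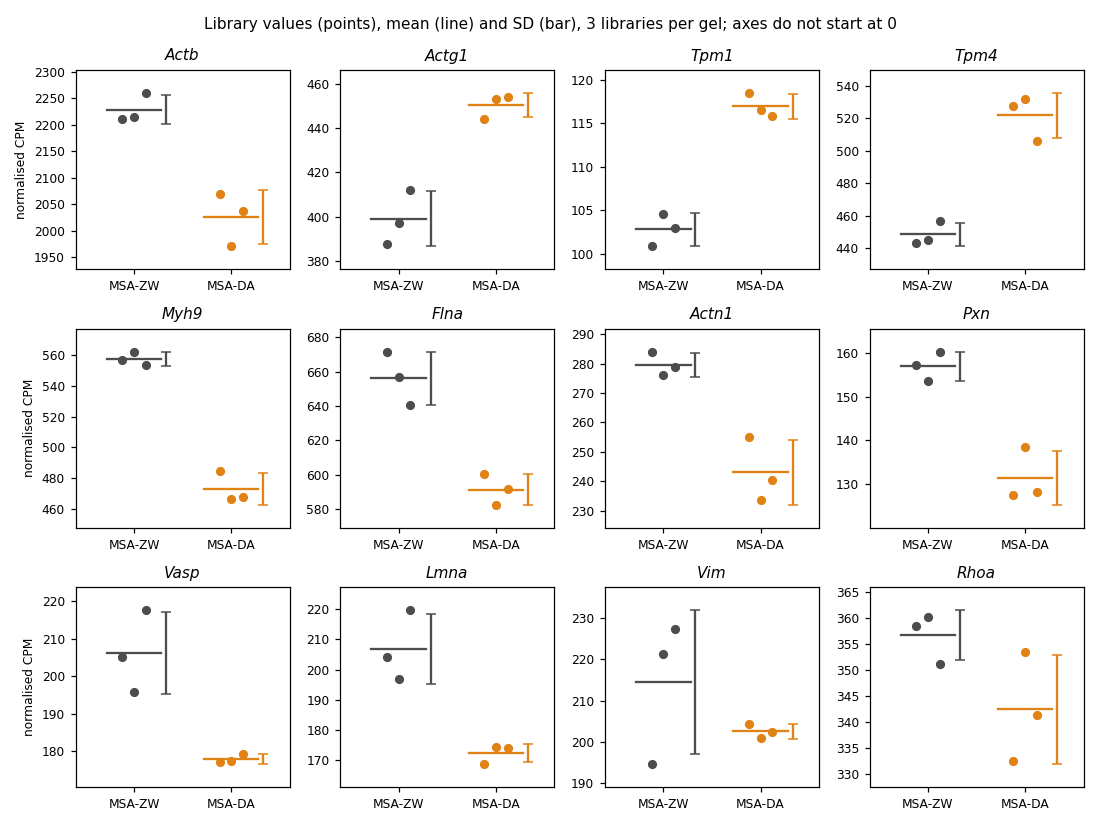
Normalised CPM (y axis, not starting at 0) of 12 members in each library, with points for the 3 libraries per gel, lines for means and bars for the SD. Actb, Myh9, Flna, Actn1, Pxn, Vasp and Lmna show MSA-DA below MSA-ZW in every library, Actg1, Tpm1 and Tpm4 show the reverse, and Vim and Rhoa overlap.

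Among proteins lying along filaments, tropomyosins split. Tropomyosins wrap actin filaments and set which myosins and severing proteins reach them. Tpm4 (ENSMUSG00000031799, chromosome 8, 72884018 to 72906986, GRCm39) stood at 443, 445 and 457 CPM in the 3 MSA-ZW libraries and 528, 532 and 506 CPM in the 3 MSA-DA libraries. It was 1.16-fold higher (log2 difference 0.22, standard error 0.03, edgeR adjusted p = 2.78e-07), the largest rise among the members, and no MSA-DA library reached down to the MSA-ZW range. Tpm1 (ENSMUSG00000032366, chromosome 9, 66929872 to 66956688) stood at 101, 105 and 103 CPM in the 3 MSA-ZW libraries and 119, 116 and 116 CPM in the 3 MSA-DA libraries. It was 1.14-fold higher (log2 difference 0.19, standard error 0.04, edgeR adjusted p = 0.000378), again without overlap. Tpm3 stood at 497, 496 and 500.4 CPM for MSA-ZW and 462, 478 and 481 CPM for MSA-DA, lower in each MSA-DA library than in any MSA-ZW library, but it did not pass (log2 difference -0.07, standard error 0.03, edgeR adjusted p = 0.0641). It passed as lower with DESeq2 (adjusted p = 0.0475), with library totals in place of scaled sizes (edgeR adjusted p = 0.0394) and without mitochondrial and ribosomal-RNA-like genes (0.0378). Tpm3 shared 13.9% of its 75-base stretches with Tpm3-rs7, which held more counts than Tpm3 itself, 12669 to 17288 per library, and did not pass (edgeR adjusted p = 0.204). The sum of Tpm3 and Tpm3-rs7 was 1384, 1411 and 1449 CPM on MSA-ZW and 1348, 1372 and 1362 CPM on MSA-DA, and the level of Tpm3 is uncertain. Tpm3-rs7 had a log2 difference of -0.05, of the same sign as Tpm3, so the sum cannot test the direction of Tpm3.

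Tagln2, transgelin 2 of the calponin family, which binds the sides of filaments, moved the other way from Tpm1 and Tpm4. It stood at 131, 140.4 and 144 CPM for MSA-ZW and 126, 117 and 119.9 CPM for MSA-DA, 1.15-fold lower without overlap (log2 difference -0.20, standard error 0.04, edgeR adjusted p = 0.000324).

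Of the 2 myosin members, the heavy chain was lower and the light chain did not pass. Myh9, the heavy chain of nonmuscle myosin IIA and the motor of cell contraction (ENSMUSG00000022443, chromosome 15, 77644787 to 77726375, GRCm39), stood at 557, 562 and 554 CPM in the 3 MSA-ZW libraries and 485, 466 and 468 CPM in the 3 MSA-DA libraries. It was 1.18-fold lower (log2 difference -0.24, standard error 0.03, edgeR adjusted p = 2.43e-08), and the MSA-ZW libraries lay close together above all MSA-DA libraries. Myl12a, a regulatory light chain, stood at 59.5, 53.4 and 62.1 CPM for MSA-ZW and 54.8, 58.3 and 57.3 CPM for MSA-DA with overlap, and the 95% interval of its log2 difference was -0.15 to 0.07. Myl12a shared 26.9% of its 75-base stretches with its near copy Myl12b and overlapped Gm49909 on the same strand over 8553 bases, so its level is uncertain.

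Of 4 tested crosslinkers 3 fell and 0 rose. Actn1, an alpha-actinin that crosslinks filaments and sits at adhesions, stood at 284, 276 and 279 CPM for MSA-ZW and 255, 233 and 240.3 CPM for MSA-DA. It was 1.15-fold lower (log2 difference -0.20, standard error 0.03, edgeR adjusted p = 1.50e-05). Flna, filamin A, which meshes filaments and binds integrin tails (ENSMUSG00000031328, chromosome X, 73267067 to 73293426, GRCm39), stood at 671, 657 and 640.4 CPM for MSA-ZW and 600.1, 582 and 592 CPM for MSA-DA. It was 1.11-fold lower (log2 difference -0.15, standard error 0.03, edgeR adjusted p = 5.66e-05), and neither gene overlapped between gels. Actn4, the other alpha-actinin, stood at 370.3, 366 and 368 CPM for MSA-ZW and 350.3, 351 and 344 CPM for MSA-DA, only 1.06-fold lower (log2 difference -0.08, standard error 0.03, edgeR adjusted p = 0.0475). The Actn4 call was lost without any single library other than MSA-ZW replicate 3, with edgeR adjusted p from 0.0580 (without MSA-ZW replicate 2) to 0.165 (without MSA-DA replicate 3). Without MSA-ZW replicate 1, MSA-DA replicate 1 or MSA-DA replicate 2 it was 0.0913, 0.0819 and 0.0983. Lcp1, L-plastin, the bundling protein of leukocytes and the crosslinker with the highest FPKM here, did not pass and stood at 1012, 1027 and 1017 CPM for MSA-ZW and 1001, 999 and 1012 CPM for MSA-DA, with a 95% interval of -0.07 to 0.02 for the log2 difference. Fscn1, fascin of filopodia, was not tested, with counts of 5, 10 and 5 for MSA-ZW against 4, 1 and 2 for MSA-DA.

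Of 6 turnover factors 3 fell and 0 rose. Vasp, which elongates filaments at the leading edge and at adhesions, stood at 205, 196 and 218 CPM for MSA-ZW and 177, 177 and 179 CPM for MSA-DA. It was 1.16-fold lower (log2 difference -0.21, standard error 0.03, edgeR adjusted p = 2.35e-05), with the MSA-DA libraries within a narrow range. Capg, the barbed-end capping protein of macrophages, stood at 693, 673 and 716 CPM for MSA-ZW and 626, 633 and 644 CPM for MSA-DA and was 1.09-fold lower (log2 difference -0.13, standard error 0.03, edgeR adjusted p = 0.000452). Coro1a, coronin 1A, a leukocyte regulator of Arp2/3 and cofilin, stood at 270.1, 260.0 and 288 CPM for MSA-ZW and 245, 246.72 and 253 CPM for MSA-DA and was 1.1-fold lower (log2 difference -0.14, standard error 0.03, edgeR adjusted p = 0.00361). No MSA-DA library reached the MSA-ZW range in these 3 genes, although limma on log2(FPKM + 1) did not call Coro1a (adjusted p = 0.0651).

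The general factors of monomer supply and severing overlapped between gels. Cofilin 1, Cfl1, stood at 1028 ± 12.6 CPM on MSA-DA against 1055 ± 20.3 CPM on MSA-ZW (SD, n = 3), profilin 1, Pfn1, at 528 ± 7.17 CPM on MSA-DA against 545 ± 22.0 CPM on MSA-ZW, and the Arp2/3 subunit Arpc2 at 645 ± 8.14 CPM on MSA-DA against 639 ± 9.03 CPM on MSA-ZW. Their 95% intervals for the log2 difference were -0.08 to 0.01, -0.10 to 0.01 and -0.04 to 0.06. These 3 genes and Capg were the members with the highest FPKM after Actb, with means of 366, 223, 315 and 262 against 793 for Actb.

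**Figure D3:**
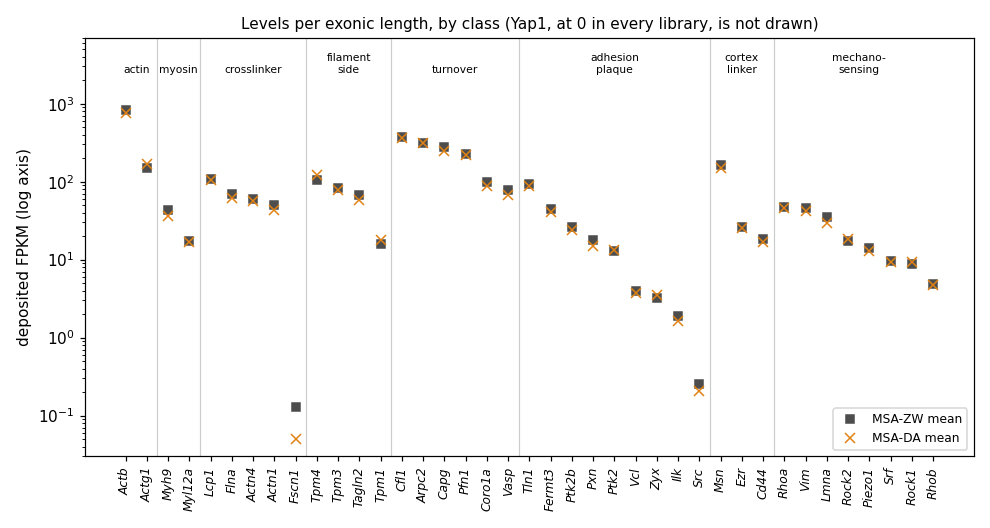
Mean deposited FPKM of each member on MSA-ZW (squares) and MSA-DA (crosses), on a log axis, ordered by level within each class. Levels span from under 1 FPKM for Fscn1 and Src to a mean of 793 FPKM for Actb, and the shift between gels is small beside the spread between genes.

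Of 9 adhesion plaque genes 4 fell and 0 rose. Pxn, paxillin, the scaffold of focal adhesions (ENSMUSG00000029528, chromosome 5, 115644735 to 115694046, GRCm39), stood at 157, 153 and 160.1 CPM in the 3 MSA-ZW libraries and 128, 139 and 128 CPM in the 3 MSA-DA libraries. It was 1.19-fold lower (log2 difference -0.25, standard error 0.04, edgeR adjusted p = 2.93e-06), the largest called fall in the plaque, without overlap. Tln1, talin 1, which activates integrins and ties them to actin (ENSMUSG00000028465, chromosome 4, 43531519 to 43562691), stood at 947, 917 and 911 CPM for MSA-ZW and 862, 871 and 866 CPM for MSA-DA. It was 1.07-fold lower (log2 difference -0.10, standard error 0.02, edgeR adjusted p = 0.00418), a small difference held by tight MSA-DA libraries. Fermt3, kindlin 3, the integrin activator of blood cells, stood at 249, 256 and 262 CPM for MSA-ZW and 239.8, 233 and 235 CPM for MSA-DA and was 1.08-fold lower (log2 difference -0.12, standard error 0.03, edgeR adjusted p = 0.00670). Ptk2b, the kinase Pyk2, stood at 193, 196 and 188 CPM for MSA-ZW and 181, 179 and 174 CPM for MSA-DA and was 1.08-fold lower (log2 difference -0.11, standard error 0.03, edgeR adjusted p = 0.0127). Both were apart in all libraries, but the Fermt3 call was lost without MSA-DA replicate 2 (edgeR adjusted p = 0.0536). That of Ptk2b was lost without MSA-ZW replicate 2 or MSA-DA replicate 3, at 0.0627 and 0.0827 (edgeR adjusted p). It was also lost with limma on log2(FPKM + 1) (adjusted p = 0.0535).

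Focal adhesion kinase itself, Ptk2, overlapped between gels at 156, 154 and 150.4 CPM for MSA-ZW and 153, 156 and 158 CPM for MSA-DA, with a 95% interval of -0.05 to 0.09. The other 4 plaque genes had few reads. Vcl, vinculin, which reinforces talin under load, stood at 34.6, 31.4 and 31.0 CPM for MSA-ZW and 30.9, 27.8 and 32.2 CPM for MSA-DA. Zyx, zyxin, which gathers at adhesions under tension, stood at 15.6, 19.9 and 16.6 CPM for MSA-ZW and 18.2, 16.8 and 21.4 CPM for MSA-DA. Ilk, the integrin-linked pseudokinase, stood at 4.96, 5.57 and 5.10 CPM for MSA-ZW and 4.40, 6.18 and 3.11 CPM for MSA-DA, and Src, the tyrosine kinase, at 1.27, 0.918 and 1.15 CPM for MSA-ZW and 0.908, 0.985 and 0.825 CPM for MSA-DA. All 4 overlapped between gels, and their 95% intervals on the log2 scale, -0.24 to 0.04, -0.08 to 0.31, -0.53 to 0.19 and -0.98 to 0.39, all included 0. Overlapping genes limit the counts of Ilk and Vcl in particular. Of the 75-base stretches of Ilk, 78.8% also occurred in other transcripts, mainly of the overlapping gene Taf10 on the opposite strand, and 38.9% of those of Vcl occurred in Ap3m1. Taf10 had 571 to 789 counts per library and Ap3m1 had 2298 to 3017, and neither passed (edgeR adjusted p of 0.913 and 0.341). With a strand setting not given in the sources used here, low counts of Ilk and Vcl need not mean low expression.

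Of 3 linkers between membrane and cortex 2 fell and 0 rose. Msn, moesin, the main ERM protein of leukocytes (ENSMUSG00000031207, chromosome X, 95139648 to 95212158, GRCm39), stood at 1022, 1026 and 1015 CPM for MSA-ZW and 942, 928 and 951 CPM for MSA-DA. It was 1.09-fold lower (log2 difference -0.12, standard error 0.02, edgeR adjusted p = 0.000230), apart in all libraries. Cd44, the hyaluronan receptor that ERM proteins bind, stood at 125, 119.6 and 125 CPM for MSA-ZW and 113, 111 and 116 CPM for MSA-DA and was 1.09-fold lower (log2 difference -0.12, standard error 0.04, edgeR adjusted p = 0.0223). Without replicate 1 of either gel, or without MSA-DA replicate 2, the call was lost (edgeR, adjusted p = 0.0607, 0.0580 and 0.121), and neither DESeq2 (0.0712) nor limma on log2(FPKM + 1) (0.0728) called it. Ezr, ezrin, overlapped at 84.4, 89.8 and 85.8 CPM for MSA-ZW and 87.5, 87.6 and 80.5 CPM for MSA-DA.

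Among mechanosensing genes and scaffold filaments 2 of 8 tested members fell and 0 rose. Lmna, which encodes lamin A/C, the nuclear scaffold whose amount is known to follow tissue stiffness (ENSMUSG00000028063, chromosome 3, 88387454 to 88417263, GRCm39), stood at 204, 197 and 219.6 CPM in the 3 MSA-ZW libraries and 169, 174 and 174 CPM in the 3 MSA-DA libraries. It was 1.2-fold lower (log2 difference -0.26, standard error 0.03, edgeR adjusted p = 9.79e-07), the largest fall among the called members, and it did not overlap. Piezo1, the stretch-activated cation channel (ENSMUSG00000014444, chromosome 8, 123208437 to 123278068), stood at 144, 135 and 136 CPM for MSA-ZW and 131, 128 and 128 CPM for MSA-DA. It was 1.07-fold lower and passed narrowly (log2 difference -0.10, standard error 0.03, edgeR adjusted p = 0.0475). Of its 75-base stretches 11.1% also occurred in Ctu2, an overlapping gene on the opposite strand with 194 to 288 counts per library. Ctu2 did not pass (edgeR adjusted p = 0.788). With the strand setting not given, what this sharing adds to the Piezo1 counts was not tested. The Piezo1 call was lost without MSA-ZW replicate 1, MSA-DA replicate 1, or either of MSA-DA replicates 2 and 3 (edgeR, adjusted p = 0.209, 0.0580, 0.145 and 0.126). Neither limma on log2(FPKM + 1) (0.136) nor DESeq2 (0.120) called it.

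Vim, vimentin, the intermediate filament of macrophages, stood at 195, 221 and 227 CPM in the 3 MSA-ZW libraries and 204, 201 and 202 CPM in the 3 MSA-DA libraries. MSA-ZW replicate 1 lay below all MSA-DA libraries and the other MSA-ZW libraries lay above all of them, so the gels overlapped and Vim did not pass (log2 difference -0.08, standard error 0.04, edgeR adjusted p = 0.159). Without MSA-ZW replicate 1 it passed as lower, with a log2 difference of -0.15 (edgeR adjusted p = 0.00220).

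None of Rhoa, Rhob, Rock1 and Rock2 passed. Rhoa, the GTPase that switches on contraction, stood at 358, 360.2 and 351 CPM in the 3 MSA-ZW libraries and 332, 353 and 341 CPM in the 3 MSA-DA libraries, with overlap and a 95% interval of -0.12 to 0.00. Of its kinases, Rock1 stood at 163, 159.9 and 148 CPM for MSA-ZW and 159, 167 and 175 CPM for MSA-DA with overlap (log2 difference 0.09, standard error 0.04, edgeR adjusted p = 0.106), and Rock2 at 244, 255 and 228 CPM for MSA-ZW and 258, 259 and 258 CPM for MSA-DA (log2 difference 0.09, standard error 0.03, edgeR adjusted p = 0.0564). Rock2 was higher in every MSA-DA library and passed when MSA-ZW replicate 2 was left out (log2 difference 0.13, edgeR adjusted p = 0.0135). Both kinase transcripts are poor in GC, at 40.2% for Rock1 and 41.4% for Rock2. In the fit that adjusts each library for GC and length, described below, Rock1 and Rock2 both stood at 0.05. Neither passed there (edgeR adjusted p = 0.363 for Rock1 and 0.263 for Rock2). Rhob, an inducible endosomal relative of Rhoa, stood at 11.7, 11.6 and 11.5 CPM for MSA-ZW and 9.57, 12 and 12 CPM for MSA-DA with a wide interval of -0.25 to 0.17.

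Several transcripts of the YAP branch were near or at 0. Yap1, the Hippo pathway coactivator, had 0 counts in every library, which allows up to 3 counts or 0.164 to 0.209 CPM on unscaled totals, for counting error only. Of the 14 genes listed as YAP and TEAD targets and partners, Tead1, Tead4, Ccn2 and Ankrd1 also had 0 counts throughout, and Wwtr1, the YAP relative TAZ, had counts of 2, 5 and 2 for MSA-ZW against 0, 2 and 0 for MSA-DA. The 6 with enough reads gave 1 lower call, Axl, a receptor kinase that is also a macrophage clearance receptor, at 15.1, 14.2 and 14.8 CPM for MSA-ZW and 10.1, 10.7 and 12.4 CPM for MSA-DA (1.32-fold lower, log2 difference -0.40, standard error 0.10, edgeR adjusted p = 0.00429).

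SRF, the factor that MRTF coactivators bring to actin genes, was present at low level. Srf stood at 29.4, 26.4 and 28.1 CPM in the 3 MSA-ZW libraries and 29.6, 25.9 and 25 CPM in the 3 MSA-DA libraries, overlapping between gels with a 95% interval of -0.21 to 0.08. Its coactivator Mrtfa stood at 90.5, 91.6 and 93.5 CPM for MSA-ZW and 83.9, 86.7 and 77.3 CPM for MSA-DA and was 1.11-fold lower (log2 difference -0.15, standard error 0.04, edgeR adjusted p = 0.0135), and Mrtfb did not pass (edgeR adjusted p = 0.955). Of 14 genes listed as SRF and MRTF targets and cofactors, 10 were tested and 3 were lower, with 0 higher. Beside Mrtfa these were Junb, an AP-1 subunit, 1.40-fold lower at 50.027 ± 0.260 CPM on MSA-DA against 70.1 ± 1.21 CPM on MSA-ZW (SD, n = 3), and Ier2, an immediate early gene, 1.28-fold lower. The smooth muscle targets Acta2, Actg2 and Cnn1 had 9 counts or fewer in each library.

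The CArG box, the DNA element SRF binds, was searched on both strands in the 250 bases before the RefSeq start in GRCm38.p6, in which 35 of the 40 members had an entry. It occurred in 1.47% of all 32851 windows and in 3 of the 41 windows of these members, those of Actg1, Vcl and Srf. Members without an entry were not searched. A member absent here, such as Actb, may thus lack an entry, and the actins cannot be compared on this element. The windows of Actg1, Vcl and Srf are printed 5′ to 3′ because 1 of these genes rose while the other 2 did not pass, with capitals on each CArG box. They lie at chr11:120348496-120348745 (minus strand), chr14:20929148-20929397 (plus strand) and chr17:46556163-46556412 (minus strand).
Actg1: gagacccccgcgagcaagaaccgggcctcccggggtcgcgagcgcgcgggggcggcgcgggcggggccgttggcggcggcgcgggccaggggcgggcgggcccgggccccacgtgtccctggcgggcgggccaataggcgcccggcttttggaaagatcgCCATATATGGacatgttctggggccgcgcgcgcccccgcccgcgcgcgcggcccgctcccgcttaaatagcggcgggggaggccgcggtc
Vcl: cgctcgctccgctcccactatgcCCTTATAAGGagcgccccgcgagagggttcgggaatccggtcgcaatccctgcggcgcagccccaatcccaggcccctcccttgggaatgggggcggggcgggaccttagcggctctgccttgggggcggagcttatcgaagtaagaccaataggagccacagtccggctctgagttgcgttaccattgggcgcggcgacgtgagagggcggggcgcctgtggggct
Srf: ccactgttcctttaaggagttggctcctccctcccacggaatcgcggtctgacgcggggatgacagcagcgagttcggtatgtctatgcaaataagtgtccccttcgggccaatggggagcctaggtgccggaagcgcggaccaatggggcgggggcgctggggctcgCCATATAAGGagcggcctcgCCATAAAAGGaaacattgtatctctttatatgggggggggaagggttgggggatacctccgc
The box lay 90 to 81 bases before the start in Actg1 and 227 to 218 bases before it in Vcl, and Srf held 2, at 82 to 73 and 62 to 53. A match is only a match of letters. The TEAD element GGAATG, searched on both strands, occurred in 12.6% of all windows and in 9 of the 41 member windows, each of another member. Of these members Tpm1 was called higher, Actn4, Flna and Tagln2 lower, Arpc2, Lcp1, Pfn1 and Vcl not called, and Yap1 not tested. Members without an entry were not searched for it either.

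The members were set beside all tested genes of like GC content by their median log2 difference. The longest transcripts of the members had a median GC content of 52.9%, against 49.1% for all tested genes, and log2 differences fell with GC content across all tested genes (Spearman correlation of -0.32, as a description across genes). In the band above 54% and up to 58% GC, 10 of 12 members were lower with a median log2 difference of -0.12, against -0.06 for the 2118 genes of that band. In the band above 46% and up to 50%, 1 of 7 members was lower and 1 higher, with medians of -0.02 and 0.01. Up to 42%, the members were Rock1 and Rock2, neither called, with a median of 0.09 against 0.07 for the 1675 genes of that band. Above 58%, 1 of 4 members was lower (Piezo1), and the median was -0.08 both for these members and for the 932 genes of that band. How many of all genes in each band were called was not counted, so the member calls per band have no background beside them. After a correction of each library for GC content and length, 13 members were lower and 3 higher, and the median moved from -0.09 to -0.05. Over all 12329 genes in that fit 640 were lower and 632 higher, 10.3% together. Of the 17 lower calls 11 remained. Lost were Actn4, Coro1a, Fermt3, Piezo1, Ptk2b and Tln1, with corrected log2 differences of -0.02, -0.07, -0.05, -0.01, -0.06 and -0.02. Rhoa (-0.10, edgeR adjusted p = 0.0102) and Vim (-0.11, 0.0410) were lower after it.

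Among the lower calls kept under that correction, Myh9 went to -0.15, Pxn to -0.17, Flna to -0.10, Vasp to -0.15, Capg to -0.07 and Lmna to -0.23. The actins, which differ little in GC content (51.1% and 52.6%), stayed apart at -0.13 for Actb and 0.20 for Actg1, and Tpm1 and Tpm4 stood at 0.19 and 0.19. Cd44 and Msn, with 44.5% and 47.7% GC, were further from 0 with it, at -0.15 and -0.13.

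**Figure D4:**
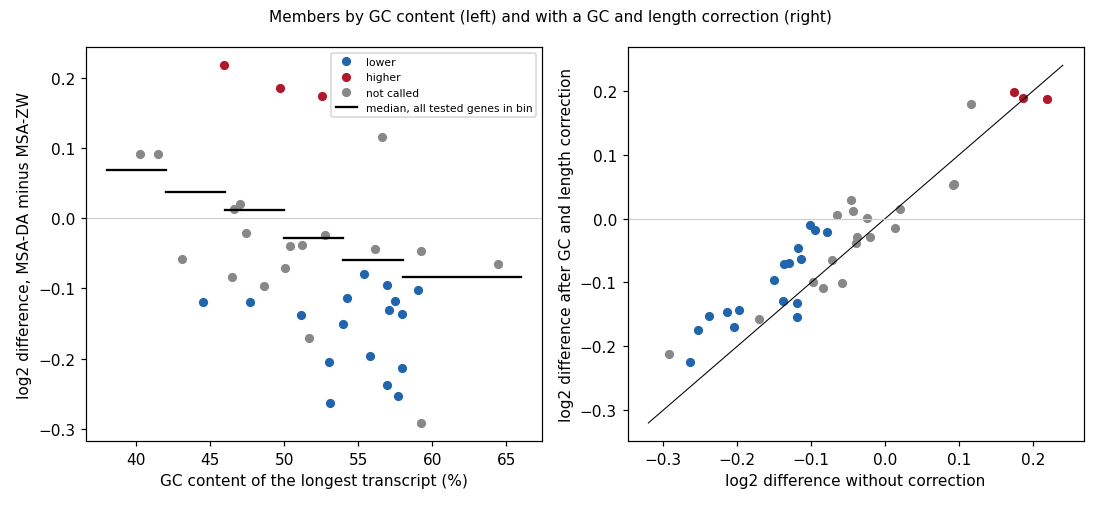
Left, log2 difference of each tested member (y axis) against the GC content of its longest transcript in percent (x axis), with black lines for the median of all tested genes in each GC band. Right, log2 differences with (y axis) and without (x axis) the GC and length correction, where the diagonal marks equal values and most blue points lie above it, nearer to 0.

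Related genes outside the 40 members also fell more often than they rose. Of 173 such genes in 12 lists, 145 were tested, 33 were lower and 3 higher, which is 22.8% and 2.07% beside 6.50% and 6.92% of all tested genes, with a median log2 difference of -0.07. Among all genes averaging 100 CPM or more 14.3% were lower and 16.6% higher, and the related genes were not split by depth. The lists were written with earlier results of these data known, so their calls are no independent support for those of the members. By the labels in the deposited table, 141 tested genes of the KEGG pathway for regulation of the actin cytoskeleton that are not members gave 15 lower and 8 higher (10.6% and 5.67%). The 119 of the focal adhesion pathway gave 15 and 10 (12.6% and 8.40%).

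Calls among branching genes and their activators were near the share over all tested genes. In either direction 12.5% of the Arp2/3 subunits and 18.2% of the WASP and WAVE genes passed. Of all tested genes 13.4% passed, and of those averaging 100 CPM or more 30.9%. Of 8 further Arp2/3 subunits 1 passed, Actr2, which was 1.05-fold higher (edgeR adjusted p = 0.0466), with 743 ± 11.8 CPM on MSA-DA against 707 ± 15.9 CPM on MSA-ZW (SD, n = 3). Of 11 tested WASP and WAVE genes 2 were lower, Cyfip1, a subunit of the WAVE complex, 1.15-fold lower at 378 ± 12 CPM on MSA-DA against 436 ± 5.24 CPM on MSA-ZW, and Nckap1l, its blood cell partner, 1.07-fold lower. Capping, severing and monomer-binding genes had 4 lower and 2 higher of 19 tested (21.1% and 10.5%). Over all tested genes the shares were 6.50% and 6.92%, and over those averaging 100 CPM or more 14.3% and 16.6%. Cotl1, coactosin, was 1.32-fold lower at 66.4, 68.2 and 67.9 CPM for MSA-ZW and 48.6, 51.4 and 53.6 CPM for MSA-DA, and the severing protein gelsolin, Gsn, was 1.18-fold lower, with 99.4 ± 3.48 CPM on MSA-DA against 118 ± 1.2 CPM on MSA-ZW. The higher ones, chosen here after their values were seen, were Cfl2, the muscle-type cofilin, 1.14-fold higher, and twinfilin 1, Twf1, 1.1-fold higher, while twinfilin 2, Twf2, was 1.18-fold lower.

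Formins, small GTPases and their regulators had 4 lower of 22 tested, with 0 higher. Fmnl1, a leukocyte formin, was 1.15-fold lower, with 222 ± 9.29 CPM on MSA-DA against 256 ± 2.94 CPM on MSA-ZW (SD, n = 3), and Dock8, an exchange factor for Cdc42, was 1.14-fold lower, with 179 ± 2.39 CPM on MSA-DA against 204 ± 5.11 CPM on MSA-ZW. Other myosins and light chain regulators had 2 lower of 12 tested, Myo1e and Myo1f, long-tailed class I myosins, 1.1-fold and 1.15-fold lower. Other crosslinkers and cortex genes had 5 lower of 15 tested, among them Marcksl1, 1.11-fold lower.

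Other adhesion plaque genes had 5 lower of 20 tested and 0 higher. Parvin gamma, Parvg, an adaptor of integrin-linked kinase in blood cells, was 1.09-fold lower. Fgr, a Src family kinase, had the largest called change of the list, 1.51-fold lower (log2 difference -0.59, standard error 0.16, edgeR adjusted p = 0.0122), with counts of 102, 79 and 128 for MSA-ZW against 66, 74 and 53 for MSA-DA. Of 9 tested nuclear lamina and LINC genes 1 was lower, Plec, the linker plectin, 1.14-fold lower at 116 ± 6.95 CPM on MSA-DA against 133 ± 6.34 CPM on MSA-ZW (SD, n = 3). Of 3 tested stretch and calcium channels Piezo2 was 2.33-fold lower (log2 difference -1.22, standard error 0.41, edgeR adjusted p = 0.0416) on few reads, counts of 19, 23 and 15 for MSA-ZW against 5, 7 and 11 for MSA-DA. Tubulin genes, a cytoskeleton of their own, had 5 lower of 10 tested and 0 higher, so lower calls were not confined to actin-related genes. The main beta-tubulin Tubb5 fell, 1.13-fold, with 1261 ± 19.6 CPM on MSA-DA against 1431 ± 22.6 CPM on MSA-ZW (SD, n = 3), and Tuba1b was 1.12-fold lower.

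**Figure D5:**
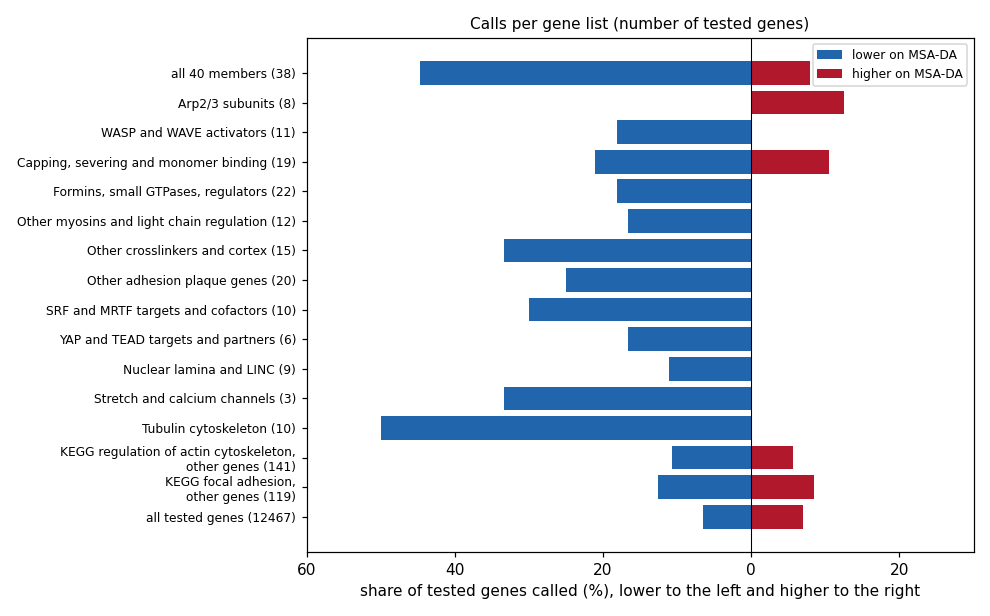
Share of tested genes called lower (blue, to the left) and higher (red, to the right) on MSA-DA in percent, for the 40 members, the 12 related lists, other genes of the KEGG pathways and all tested genes, with the number tested in brackets. The members and the tubulin list reach furthest to the left, while all tested genes are nearly even at 6.50% and 6.92%.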

How the data were processed

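The submitters' processing notes name GRCm39, HISAT2 2.2.1, cutadapt 1.9.1 and bcl2fastq 2.20.0.422, with a counting tool not given in the sources used here. Deposited by the authors were whole-number counts per gene and FPKM values that equal count over exonic length and library total to within 0.011 for 100% of genes. Groups follow the sample titles. The counts were tested with edgeR 4.0.16 (TMM, filterByExpr, glmQLFit, glmQLFTest, gel as the only term) in R 4.3.3, with Benjamini-Hochberg adjustment over 12467 genes and a threshold of 0.05. The fit was tested on simulated data. CPM uses TMM-scaled sizes. A 95% interval is the difference plus or minus its standard error times the t quantile, unadjusted. Members and lists were chosen with earlier results of these data known. Named by rule were all members, the 2 called genes of smallest p in each related list and called ones with a log2 difference of at least 0.5, and some of these are not reported here. GC content is that of the longest GENCODE M21 transcript (GRCm38), found for 98.9% of tested genes, and its correction used smooth terms (mgcv 1.9.3). Other alternatives were DESeq2 1.42.0, limma 3.58.1 on log2(FPKM + 1) and log2(FPKM + 0.1) with an FPKM of at least 1 in 3 libraries, other scalings and filters, each library left out, and a replicate block. Promoter sequences and coordinates are RefSeq's, GRCm38.p6.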

Additional observations from a re-analysis of the deposited data

How the results depend on the processing

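Across 18 alternative settings the 3 members called higher, Actg1, Tpm1 and Tpm4, kept direction and call in each, as did 5 of the lower ones, Flna, Lmna, Msn, Myh9 and Pxn. Over the 38 tested members 599 values kept direction and side of the threshold, 56 lost their call, 9 gained one and 15 changed sign, the last in 7 members that are not among the called ones. The number of genes called over all genes was 1673 in the main fit, 13.4% of 12467 genes. DESeq2 called 949, which is 12.5% of the 7577 genes it gave an adjusted p. Limma on log2(FPKM + 1) and log2(FPKM + 0.1) called 906 and 895 of 10874 genes (8.33% and 8.23%). Without a filter limma called 412 of 23514 genes (1.75%), and 5 members were lower in place of 17. Leaving out 1 library gave 1001 to 1654 genes, the lowest without MSA-DA replicate 2 and then replicate 3 (1065), with 13 to 17 members lower and 3 to 4 higher. No pairing by replicate number was seen (correlations of 0.01, 0.02 and -0.003 between same-numbered libraries, and not every library correlated best with its own number). Such low correlations cannot show that the libraries were unpaired. With a replicate block 15 members were lower, 3 higher and 1594 genes called, and Actn4 and Piezo1 did not pass. With the block and the GC and length correction 13 were lower and 3 higher. With 1 library left out, log2 differences ran from -0.000461 to 0.0227 for Arpc2, -0.0514 to 0.00981 for Ezr, -0.484 to 0.0381 for Ilk, -0.101 to 0.00984 for Myl12a and -0.103 to 0.0446 for Rhob, which changed sign without 1 library each, or 2 for Arpc2. With the GC and length correction the changed signs were Arpc2 (-0.0147), Ezr (0.00145), Pfn1 (0.0285), Rhob (0.0123) and Srf (0.00528), and with the replicate block as well Arpc2 (-0.0146), Pfn1 (0.0288), Rhob (0.00637) and Srf (0.00647). The cause was not tested. Standard errors of the 8 tested members under 100 CPM ran from 0.04 for Ezr to 0.34 for Src on the log2 scale.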
